A study of Oryza sativa Japonica Group with 12 samples.

Results

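The 100 probe sets described here gave the largest excess of signal in panicles of the fst mutant over wild-type (WT) panicles at 5 days after pollination (DAP), out of 57258 probe sets measured on the Affymetrix rice array. A probe set, a group of short probes for a single transcript, entered the ranking if its lowest signal on the fst arrays at 5 DAP lay above its highest signal on the WT arrays of that stage. Of all probe sets 8389 (14.7%) met this demand, and those with the 100 largest differences of mean log2 signal were taken. The differences at 5 DAP therefore chose the members and are given as a description, without a test. Groups were named M5D and W5D for fst and WT panicles at 5 DAP, and MBF and WBF for fst and WT panicles before flowering, with 3 arrays each. The labels give the later stage as 5 DAP, while the text of the study also uses a range of days that ends there, so the exact day behind each value is uncertain. Each array received RNA of a pool of 20 panicles from 10 plants grown in a greenhouse under daylight. The labels call the mutant cyn, an earlier name of fst, and its control the CYN wild line, both of the japonica type. The mutation is a spontaneous frame shift in FST (OsMADS29) that no group other than M5D and MBF carries, and a single mutant line was used. The description label of the mutant arrays reads wild lines, while their title, source and genotype name the mutant, and these were followed. The probe set of FST itself gave 1058 to 1378 in M5D, 1263 to 1523 in W5D, 211 to 236 in MBF and 106 to 123 in WBF. A frame shift leaves a transcript to be measured, so FST does not check the genotype labels.

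FST belongs to the B-sister class of MADS-box transcription factors, which act in the ovule and in the maternal tissue that surrounds the young seed. After pollination a WT panicle passes from flowers to filling grains, with storage proteins and starch laid down in the endosperm, whereas fst plants are female sterile. Their ovules are fertilized, but the young embryo and endosperm stop growing within days of pollination and are then lost, so that no grain fills. The comparison asked here was whether transcripts that are more abundant in fst panicles at 5 DAP already were so before flowering or became so afterwards. A panicle holds many tissues, so fewer cells of a type and less RNA per cell cannot be told apart in any value below.

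The members differed between M5D and W5D by 1.47 to 4.10 on the log2 scale of signal, with a median of 1.69, or 3.23-fold. Of the 100 members 27 differed at least 4-fold and 4 at least 10-fold. The lowest M5D array lay above the highest W5D array by a median of 1.21 on the log2 scale, and by at least 1 for 77 members. At the end of the ranking, CIPK32 and LOC4352000 (Os.7026.1.S1_x_at) were the last to enter, both with a difference of 1.47, and LOC4351676 (Os.26802.1.S1_at) and LOC4341935 (Os.11547.1.S1_s_at) were left out, both with 1.46. In the gene table of the array 72 members had a listed gene, 70 different genes in all, and 28 had none. Another probe set of the same gene was on the array for 18 of the genes. These 30 further probe sets had a median difference of 0.45 at 5 DAP, and 28 of them were higher in fst by their mean. They ranged from -0.04 to 1.45, and the groups overlapped for 10 of them, so the size of a difference belongs to the probe set named and not to every probe set of its gene. A name or description was at hand for 26 of the members, and the groups by function given here cover these alone, since the other 74 had neither.

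Whether the excess was already present before flowering was tested on the MBF and WBF arrays, which took no part in choosing the members. Of the 100 members, 10 were called higher in fst before flowering by limma (adjusted p under 0.05 over all probe sets), where 1.46% of all probe sets were called higher. A single member, LOC4334726, was called lower, where 2.35% of all probe sets were called lower. The other 89 were not called, so by this test the excess of 90 members was not shown to be kept from before flowering. Without adjustment, 24 members had a p under 0.05 with a higher and 13 with a lower mean in MBF, where 11.7% and 10.9% of all probe sets did so. The number called higher depended on single arrays, with 2 to 6 calls after leaving out any 1 of the 6 arrays and the fewest without MBF replicate 2. The share of all probe sets called higher also depended on single arrays and lay between 0.398% and 1.23%. Without MBF replicate 2 there were 2 calls among the members, where 0.398% of all probe sets were called, and without WBF replicate 1 there were 5, where 0.419% were. Only the zinc finger gene S3574 and LOC4345186 stayed called without each array in turn.

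By size, the differences before flowering ran in both directions and were smaller than those at 5 DAP. The ranking took the members for large differences at 5 DAP, so smaller ones on other arrays follow in part from the choice. The median of MBF minus WBF over the members was 0.07 on the log2 scale (range -1.52 to 1.15), beside 0.04 over all probe sets. As a share of the difference at 5 DAP, the value used to choose the members, this was 4.28% at the median. The share was at least 25% for 21 members and at least 50% for 2. Single members were nevertheless further apart than most probe sets. The difference lay within 0.5 in either direction for 73 members, beside 93.1% of all probe sets. Of the members 59 had a higher mean in MBF than in WBF, beside 56.8% of all probe sets. The MBF arrays all lay above the WBF arrays for 23 members, where 15% of all probe sets did so, and all below them for 10 members, where 13.5% did so. For the other 67 the 2 groups overlapped. Among the 8389 probe sets that met the demand on the arrays at 5 DAP, 2.74% were called higher before flowering and 1.67% lower. The plot of the difference at each stage shows the members spread to both sides of 0 before flowering.

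**Figure D1:**
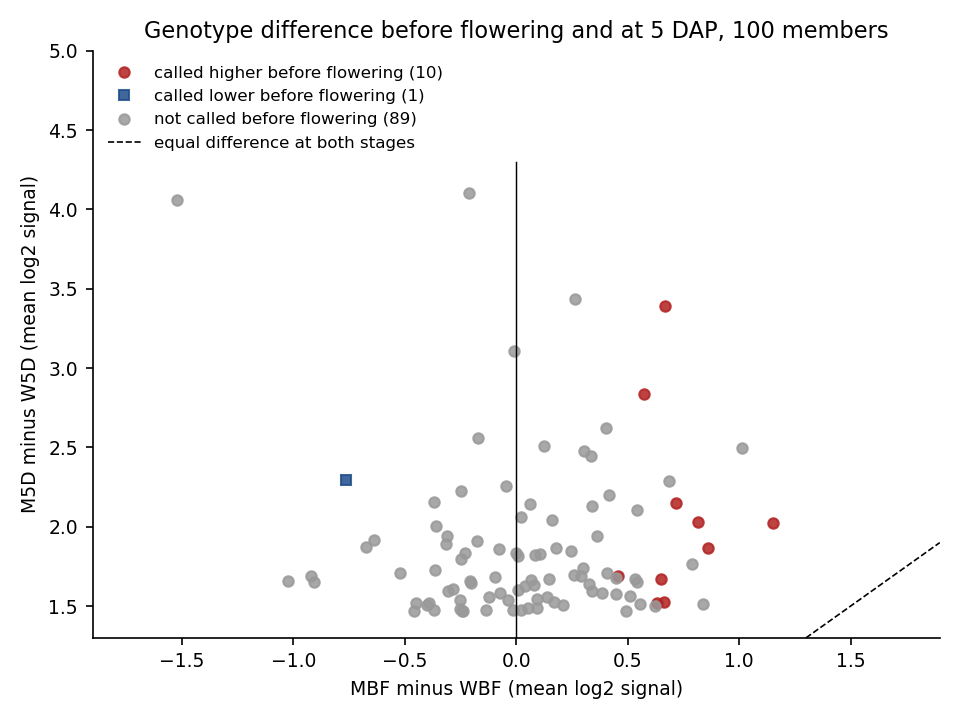
Difference of mean log2 signal between fst and WT at 5 DAP (M5D minus W5D, vertical axis, used to choose the members) against that before flowering (MBF minus WBF, horizontal axis) for the 100 members, with the limma call before flowering by colour. The values before flowering lie on both sides of 0 with a median of 0.07. Every member has the larger difference at 5 DAP and so lies above the dashed line of equal differences if this short line is extended.

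Between the stages, most members were up in fst. A change of mean log2 signal between BF and 5D of at least 1 in either direction was taken as up or down, and 19 members lay within 0.2 of such a limit in either genotype. In fst 69 members were at least 2-fold higher at 5 DAP than before flowering, 15 at least 2-fold lower and 16 within 2-fold, where 4.89%, 4.47% and 90.6% of all probe sets were so. In WT 21 were at least 2-fold higher, 33 at least 2-fold lower and 46 within 2-fold, where 5.33%, 5.04% and 89.6% of all probe sets were so. The largest class, 43 members, was up in fst and within 2-fold in WT, with a median of 1.93 in fst and 0.19 in WT. A class of 21 members was up in both genotypes, by a median of 3.54 in fst and 1.55 in WT. A class of 13 was within 2-fold in fst and down in WT, with a median of -0.16 in fst and -1.88 in WT. A class of 15 was down in both, by a median of -2.13 in fst and -3.63 in WT. There were 5 members up in fst and down in WT, and 3 within 2-fold in both. The stage changes share the M5D and W5D arrays with the choice of members, so the classes are a description. Over all probe sets 1.73% were up in fst and within 2-fold in WT, 3.13% were up in both, 1.48% were within 2-fold in fst and down in WT and 3.54% were down in both. Another 0.0175% were up in fst and down in WT, and 87.0% were within 2-fold in both.

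**Figure D2:**
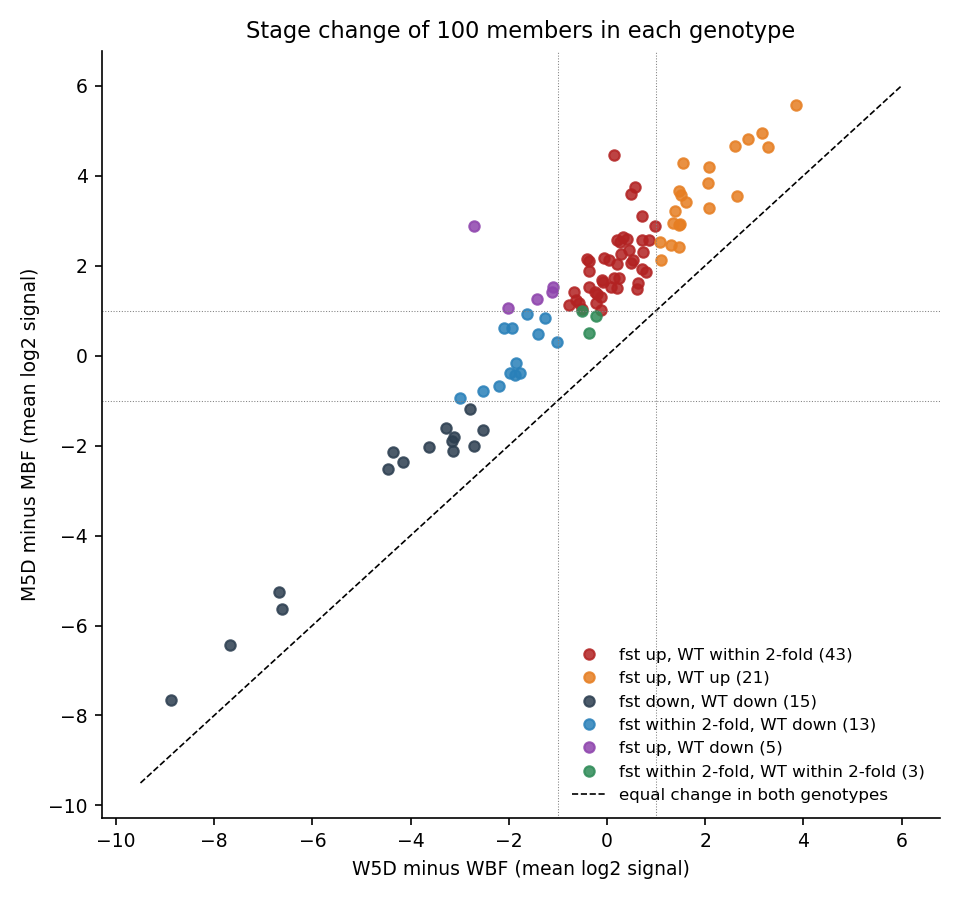
Change of mean log2 signal from before flowering to 5 DAP in fst (M5D minus MBF, vertical axis) against that in WT (W5D minus WBF, horizontal axis) for the 100 members, coloured by class, with dotted lines at a 2-fold change. Of the members 43 are up in fst and within 2-fold in WT, and the 15 members down in both genotypes run to -7.65 in fst and -8.88 in WT.

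The levels behind these classes differed. The median member had a mean signal of 191 in M5D and 48.4 in W5D, and of 59.7 in MBF and 56.7 in WBF. The median of all signals on the arrays was 32.2, and 96 members had a mean above it in at least 1 group, 19 of them in M5D alone. The 4 members at or below it in every group included the member probe set of IRX9L. Before flowering 70 members had a mean above this median in MBF or WBF, beside 51.7% of all probe sets. Members down in both genotypes stood among the higher signals of the members before flowering, as the plot of group levels shows.

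**Figure D3:**
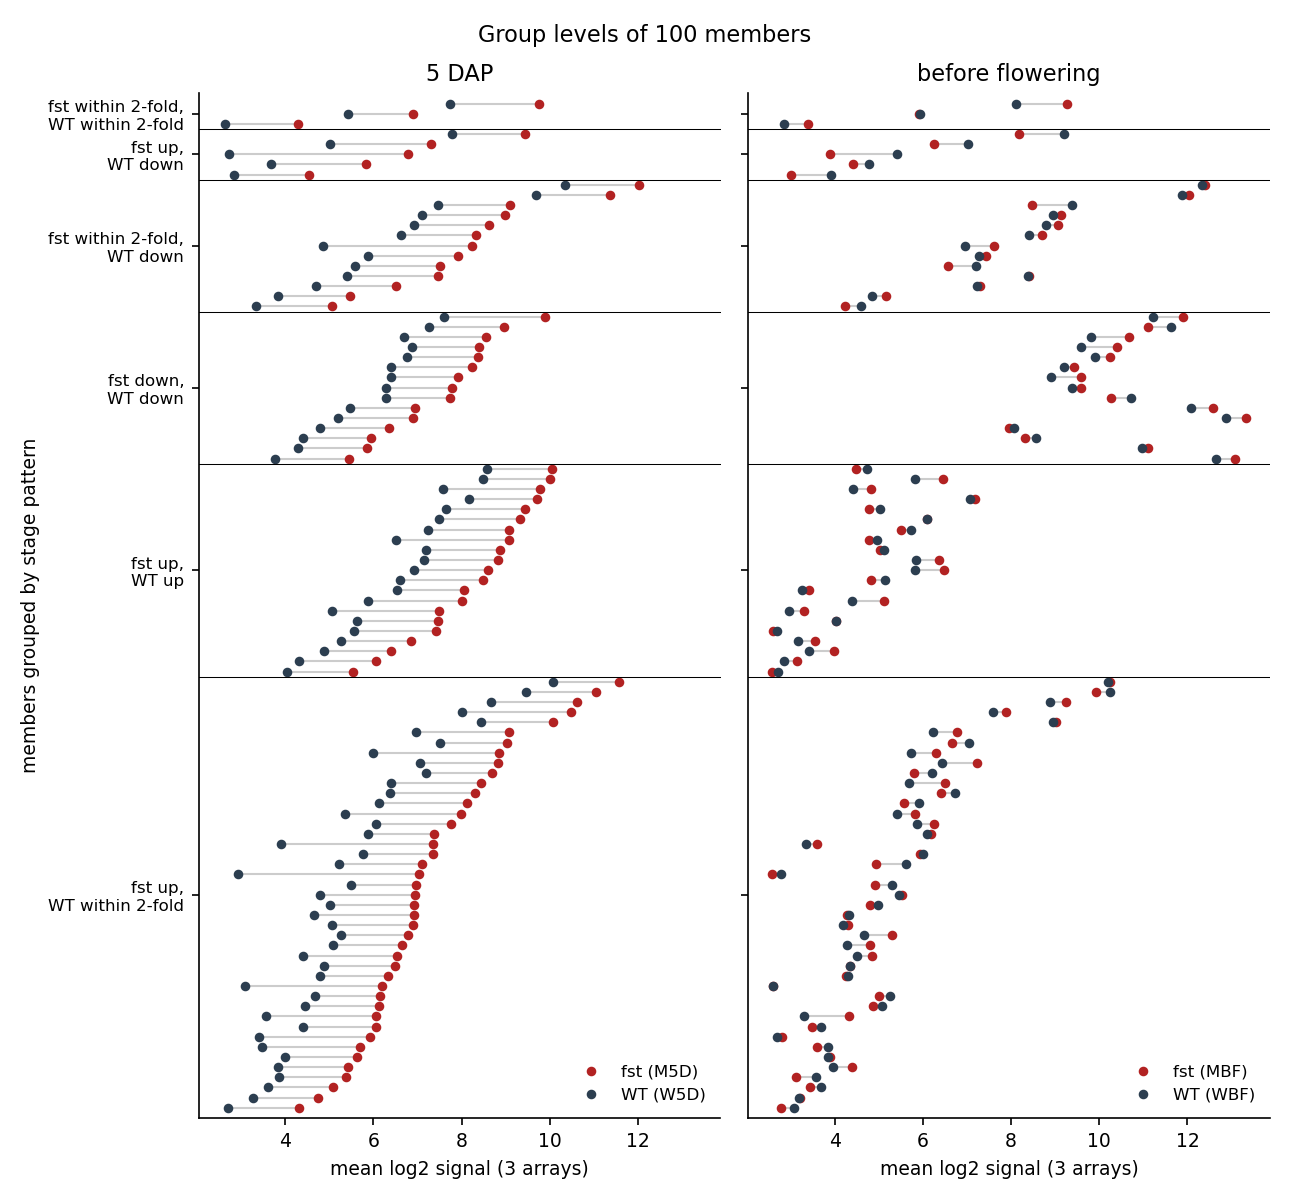
Mean log2 signal of 3 arrays (horizontal axis) in fst (red) and WT (dark) at 5 DAP (left) and before flowering (right) for the 100 members, 1 line per member, grouped by stage class and sorted by M5D level. The points of a member lie at least 1.47 apart at 5 DAP, where they were chosen, and mostly close together before flowering.

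The largest difference of all belonged to a probe set without a listed gene, followed by a beta-amylase and the root protein RCc2. Os.22857.1.A1_at gave signals of 84.8, 164 and 161 on the M5D arrays, against 8.12, 5.69 and 9.58 on the W5D arrays. Before flowering it gave 5.40, 5.71 and 6.92 in MBF and 7.89, 6.45 and 6.54 in WBF. Its signal was thus raised in M5D alone and stayed near the lowest of the array in the other groups, which overlap. The 5 DAP difference was 4.10 on the log2 scale and that before flowering -0.21 (SE 0.13, adjusted p = 0.367 from limma).

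A beta-amylase described as leaf specific (Os.15854.1.S1_at), an enzyme that releases maltose from starch, gave 89.2, 99.1 and 151 in M5D, against 5.31, 7.2 and 7.49 in W5D. Before flowering it gave 15.9, 16.5 and 12.8 in MBF and 273, 11.6 and 25.2 in WBF. The WBF arrays disagreed among themselves, with replicate 1 far above both others, and the mean change in WT between the stages was -2.71 with this array and -1.37 without it. In fst the change was 2.88. The difference before flowering was -1.52 (SE 0.94, adjusted p = 0.367), and -0.19 without WBF replicate 1. Of 7 other genes of starch breakdown on the list, none of them a member, AMY1.5 and AMY1.3, alpha-amylases, were called higher at 5 DAP, and AMY1.5 averaged 263 ± 37.6 in M5D and 103 ± 18.9 in W5D (SD, n = 3 each, log2 change 1.36, SE 0.17, adjusted p = 0.0025 from limma).

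RCc2 (Os.6838.1.S1_at), known as a root-specific protein of rice, gave 64.6, 244 and 276 in M5D, against 11.4, 17.2 and 17.4 in W5D. It gave 11.5, 13.3 and 11.9 in MBF and 10.8, 9.47 and 10.3 in WBF. All M5D arrays were high, replicate 1 by less than the others, and the 5 DAP difference was 3.44. The MBF arrays also lay above the WBF arrays, by 0.26 (SE 0.11, adjusted p = 0.191), which was not called.

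Members grouped here with the cell wall, by their names alone, included a polygalacturonase, a chitinase-domain protein, EXLA4, IRX9L and CASPL1D1. The polygalacturonase (LOC4328189), which cleaves pectin, gave 394, 263 and 267 in M5D, against 32.6, 33.3 and 21.9 in W5D. Before flowering it gave 201, 204 and 186 in MBF and 125, 131 and 117 in WBF. The genotypes were thus apart at both stages, and the signal was within 2-fold between the stages in fst (0.62) and down in WT (-2.11). It was called higher before flowering, by 0.67 on the log2 scale (SE 0.10, limma adjusted p = 0.0121), 19.6% of the 3.39 at 5 DAP. The call was lost without MBF replicate 2 and without WBF replicate 1, with an adjusted p of up to 0.0542.

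The chitinase-domain protein (Os.37184.1.S1_at) gave 134, 135 and 298 in M5D and 38.7, 43.6 and 44.2 in W5D. It gave 323, 313 and 383 in MBF and 323, 357 and 322 in WBF, which overlap, and the WT signal was lower at 5 DAP than before flowering by far more than the fst signal. The next members were singled out as those with a gene symbol, after their values were seen. EXLA4, an expansin-like protein of a family named for wall loosening, gave 574, 738 and 790 in M5D and 200, 185 and 215 in W5D, and was between 18.2 and 40.1 on all arrays before flowering. It was up in both genotypes, by 4.66 in fst and 2.61 in WT. IRX9L, a glycosyltransferase of the family that builds the xylan backbone, entered through a dim probe set (Os.19374.1.S1_at), with 16.0, 18.8 and 25.8 in M5D and 7.63, 6.12 and 5.84 in W5D. The other probe set of IRX9L, with a group mean of up to 1603, differed by 0.12 at 5 DAP with overlapping arrays. CASPL1D1, of the protein family of the Casparian strip membrane domain, averaged 459 ± 87.6 in M5D and 144 ± 25.4 in W5D (SD, n = 3 each), and 93.2 ± 57.3 in MBF and 57.6 ± 7.39 in WBF (SD, n = 3 each).

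On the list of 105 cell wall genes, which held no member, 17 were called higher and 7 lower at 5 DAP, where 4.08% of all probe sets were called higher and 3.95% lower. Before flowering 12 of them were called higher and 6 lower. The largest change of the list at 5 DAP was that of the glucanase gene GLU8, lower in fst by -1.77 (SE 0.23, adjusted p = 0.003 from limma), and XTH8, of the enzymes that cut and rejoin xyloglucan, was higher by 1.20 (SE 0.12, adjusted p = 0.0009). Each list gene was read on its brightest probe set, while the shares over all probe sets include dim ones. The counts and the shares are therefore not of like probe sets. The list was matched by gene symbol and does not cover the family.

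Members described as proteases were a serine carboxypeptidase, a cucumisin-like protease and a subtilisin family protein. The carboxypeptidase (LOC4333028) gave 214, 246 and 309 in M5D, against 35.6, 46.0 and 42.4 in W5D. It gave 56.4, 54.6 and 59.1 in MBF and 46.5, 38.9 and 43.6 in WBF. The genotypes did not overlap at either stage, but the difference before flowering, 0.40 (SE 0.11, adjusted p = 0.0742), was not called. The cucumisin-like protease (LOC4338899) gave 568, 638 and 433 in M5D and 126, 134 and 118 in W5D, and 102, 118 and 111 in MBF and 65.9, 87.4 and 75.3 in WBF. Its difference before flowering was 0.54 (SE 0.13, adjusted p = 0.0552), which was not called, and both genotypes were higher at 5 DAP by their means.

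The subtilisin family protein (LOC4343084) gave 183, 263 and 290 in M5D and 67.5, 52.5 and 55.9 in W5D. It gave 127, 146 and 275 in MBF and 184, 86.5 and 230 in WBF, with a wide spread and no separation of the genotypes. Of 4 protease genes on the list, AP25 was called higher at 5 DAP, by 1.28 (SE 0.16, adjusted p = 0.0024 from limma).

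**Figure D4:**
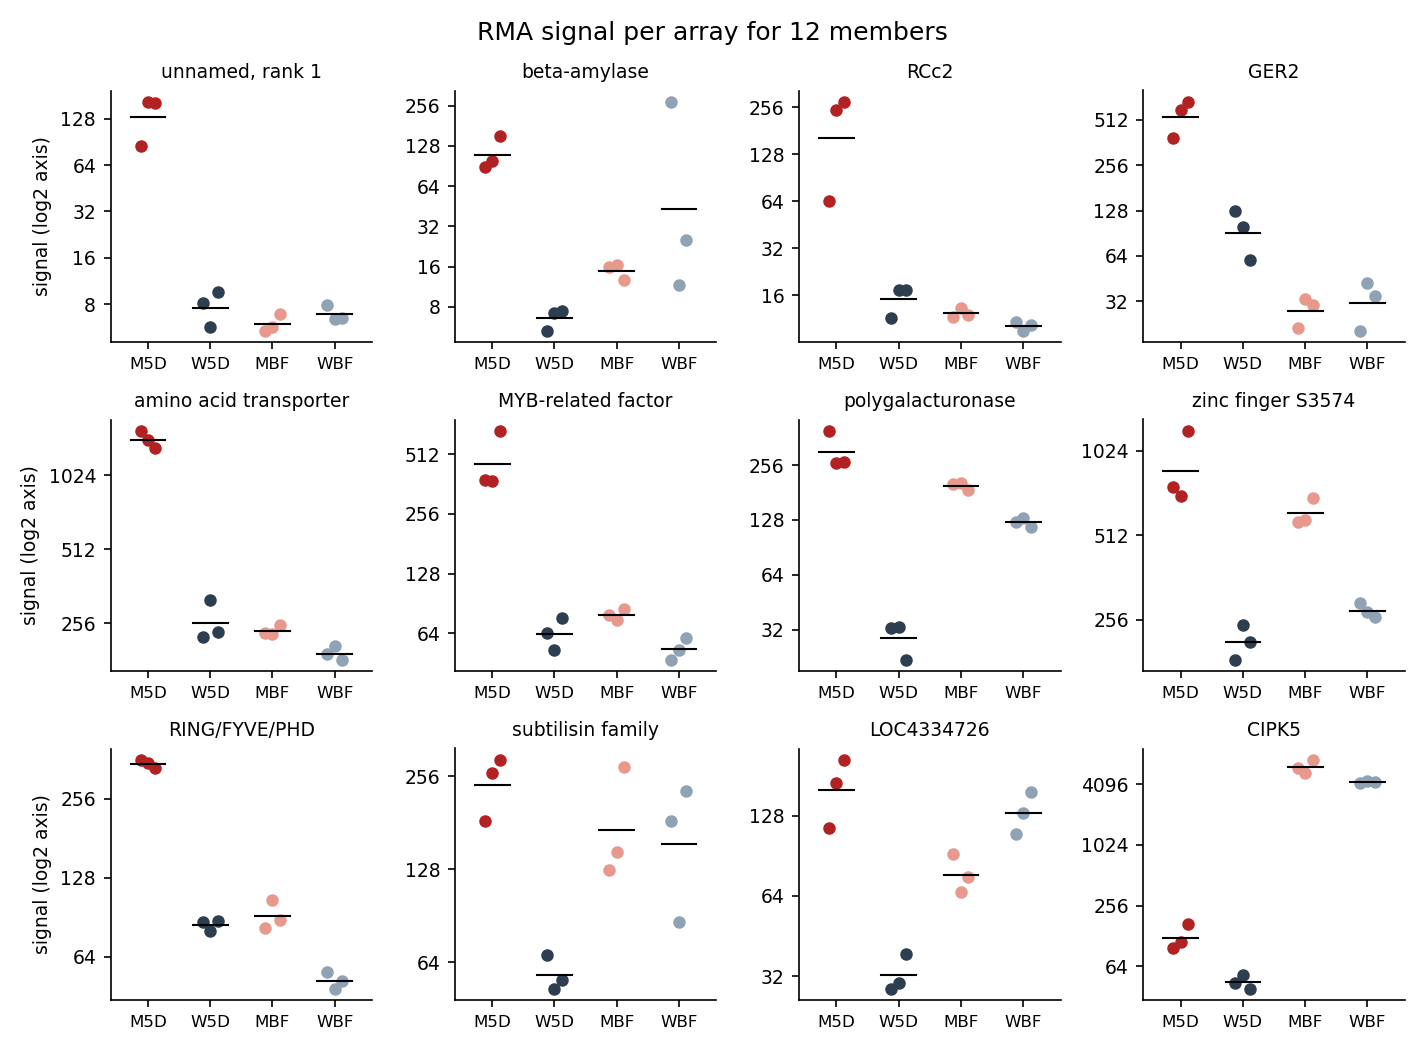
Signals per array (points, log2 axis that differs between panels) and their geometric mean (line) in M5D, W5D, MBF and WBF for 12 members. Os.22857.1.A1_at (unnamed, rank 1) is high in M5D alone, the polygalacturonase and S3574 differ between the genotypes at both stages, and CIPK5 is high before flowering in both genotypes.

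Germin-like proteins, secreted proteins of the cell wall, gave 3 members. GER2 gave 390, 595 and 673 in M5D and 126, 100 and 60.4 in W5D, and GER1, its direct neighbour in the annotated genome, gave 121, 168 and 287 in M5D and 53.1, 29.5 and 23.3 in W5D. Both were up between the stages in both genotypes, GER2 by 4.28 in fst and 1.55 in WT and GER1 by 4.18 in fst and 2.07 in WT. These 2 genes were the only members within 4 genes of each other among the 70 placed. A probe set described as germin protein 4 (LOC4347898) gave 63.9, 67.8 and 51.6 in M5D and 10.0, 11.0 and 10.9 in W5D. It was between 5.28 and 8.03 on all arrays before flowering. None of the 3 was called before flowering (adjusted p of 0.351 to 0.737 from limma). Of the 7 genes on the list of germin-like proteins that were no members, GER5 was called higher at 5 DAP, by 1.05 (SE 0.16, adjusted p = 0.0054 from limma), and GER3 was called lower before flowering, by -2.23 (SE 0.34, adjusted p = 0.0136).

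Transporters among the described members moved amino acids, phosphate or metals. LOC4325094, named in the study's tables after an amino acid permease of castor bean (AAP1), gave 1551, 1425 and 1318 in M5D, against 225, 319 and 236 in W5D. It gave 233, 231 and 251 in MBF and 191, 206 and 182 in WBF. The signal was thus within 2-fold between the stages in WT (0.41) and up in fst (2.58). The MBF arrays lay above the WBF arrays by 0.31 (SE 0.10, adjusted p = 0.125), which was not called.

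PHT1-1 (LOC4331635), a phosphate transporter of rice, gave 357, 263 and 345 in M5D and 90.5, 114 and 94.0 in W5D, and 459, 463 and 337 in MBF and 275, 423 and 338 in WBF. The signal of this probe set was near the level before flowering in fst and lower in WT. A further probe set of PHT1-1, with a group mean of up to 619, differed by 0.40 at 5 DAP with overlapping arrays. NRAMP5, which takes up manganese and cadmium in rice roots, gave 2175, 1988 and 2226 in M5D and 819, 724 and 590 in W5D, and 943, 880 and 1119 in MBF and 1394, 1153 and 1089 in WBF. Before flowering the 2 groups of NRAMP5 overlapped, with the lower mean in fst. PHT1-1 and NRAMP5 are further members singled out for their gene symbols. Of 31 other transporter genes on the list 3 were called higher and none lower at 5 DAP (5 higher and 2 lower at an unadjusted p under 0.05), with the largest change in SWEET15.

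Regulators among the described members were named after zinc finger, MYB, Dof and Aux/IAA factors. The MYB-related gene LOC4336779, which the study's tables name after the clock factor CCA1 known from Arabidopsis, gave 379, 377 and 669 in M5D, against 64.1, 53.0 and 76.7 in W5D. It gave 78.8, 74.6 and 85.1 in MBF and 47.2, 53.1 and 60.4 in WBF. All fst arrays lay above the WT arrays at both stages, and the call before flowering rested on a difference of 0.58 (log2 scale, SE 0.12, limma adjusted p = 0.0372). It held only when WBF replicate 3 was the array left out, and the adjusted p was up to 0.131 without any other. Of 7 other clock genes, none was called higher at 5 DAP by limma (3 at an unadjusted p under 0.05), and PRR95 was lower, by -0.91 (SE 0.12, adjusted p = 0.0029). PCL1 was called higher before flowering, by 0.77 (adjusted p = 0.016).

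S3574 (LOC4340812), a zinc finger gene, gave 760, 707 and 1205 in M5D, against 184, 245 and 213 in W5D. It gave 572, 579 and 696 in MBF and 292, 273 and 262 in WBF. The genotypes were far apart at both stages, and the signal in neither changed 2-fold between them. Its log2 change before flowering, 1.15 (SE 0.11, adjusted p = 0.00259 from limma), was the largest among the members and 57.0% of that at 5 DAP. The adjusted p was at most 0.0142 without any 1 array. LOC4345186, described as a RING/FYVE/PHD zinc finger protein, gave 359, 349 and 334 in M5D and 87.1, 80.5 and 87.2 in W5D. It gave 82.6, 105 and 88.0 in MBF and 55.9, 48.3 and 51.9 in WBF, 0.82 apart on the log2 scale (SE 0.12, limma adjusted p = 0.0122, at most 0.0496 without any 1 array). Another probe set of LOC4345186 differed by 0.56 at 5 DAP and by 0.09 before flowering, where it was not called (adjusted p = 0.697 from limma).

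Both probe sets Os.11786.2.S1_x_at and Os.11786.2.S1_at entered, the first described as a Dof-type factor that binds the ascorbate oxidase promoter. The first gave 122, 114 and 131 in M5D and 30.3, 26.5 and 26.3 in W5D, and 41.5, 48.2 and 48.3 in MBF and 48.9, 40.8 and 42.4 in WBF. Neither probe set was called before flowering (adjusted p = 0.777 and 0.413 from limma). No gene was called by limma at either stage among the 4 genes of the Dof list (at an unadjusted p under 0.05, 1 higher and 1 lower at 5 DAP and 2 higher before flowering). The B-box list held a single gene, not called at either stage by limma (higher at 5 DAP at an unadjusted p under 0.05). IAA8, of the Aux/IAA repressors of the auxin response, gave 354, 401 and 499 in M5D and 110, 158 and 178 in W5D, and 58.7, 48.0 and 62.1 in MBF and 68.3, 85.5 and 69.0 in WBF. Its genotypes were separate at both stages in opposite order, and the difference before flowering was -0.40 (SE 0.14, adjusted p = 0.139), not called.

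Kinases among the described members were RLK5, CIPK5 and CIPK32. The probe set named after RLK5 (LOC4337274), a receptor-like kinase of Arabidopsis, gave 1153, 978 and 595 in M5D and 385, 122 and 147 in W5D. It gave 13.0, 27.9 and 64.4 in MBF and 17.5, 23.6 and 23.7 in WBF, and was up in both genotypes, by 4.94 in fst and 3.15 in WT. CIPK5, a kinase of the family bound by calcineurin B-like calcium sensors, gave 97.9, 111 and 167 in M5D and 43.1, 52.0 and 38.2 in W5D. It gave 5883, 5359 and 7142 in MBF and 4256, 4398 and 4326 in WBF, so it was high before flowering in both genotypes and far lower at 5 DAP in both. CIPK32, of the same family, entered through a probe set with 26.6, 34.7 and 41.9 in M5D and 12.6, 12.5 and 11.5 in W5D. The other probe set of CIPK32, with a group mean of up to 767, differed by 0.53 at 5 DAP.

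CIPK5 was 1 of 4 members at least 32-fold lower at 5 DAP than before flowering, by their means, in both genotypes. LOC4350576 gave 41.5, 22.8 and 85.9 in M5D and 15.5, 15.2 and 10.5 in W5D, and 8096, 7643 and 10697 in MBF and 6694, 5627 and 6894 in WBF. LOC4349048 gave 130, 76.8 and 166 in M5D and 44.6, 27.0 and 40.9 in W5D, and 10237, 9954 and 10682 in MBF and 7596, 7793 and 7137 in WBF. LOC4330684 gave 65.6, 62.2 and 47.4 in M5D and 22.1, 23.0 and 15 in W5D, and 2326, 2300 and 2005 in MBF and 2253, 2099 and 1700 in WBF. These members, singled out after their values were seen, had the higher remainder in fst of a signal that was far lower at 5 DAP in both genotypes. LOC4349048 was called higher before flowering, by 0.46 on the log2 scale (SE 0.09, adjusted p = 0.0378 in the limma fit), and this call did not hold when any 1 of the 6 arrays was dropped.

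Members without a described function included a pair of opposite cases. LOC4334726 gave 114, 170 and 207 in M5D and 28.8, 30.2 and 38.9 in W5D. It gave 91.9, 66.0 and 75.1 in MBF and 109, 131 and 157 in WBF, so that fst was above WT at 5 DAP and below it before flowering. Before flowering the difference was -0.77 on the log2 scale (SE 0.17, limma adjusted p = 0.0421), and of the single arrays only MBF replicate 1 could be dropped without ending this call. OsAffx.14426.1.S1_at gave 686, 778 and 1569 in M5D and 211, 113 and 300 in W5D, and 3296, 3990 and 4309 in MBF and 2725, 1786 and 2795 in WBF. Here fst was above WT at both stages, while the signal was down between the stages in both. The difference of OsAffx.14426.1.S1_at before flowering, 0.69 (SE 0.19, adjusted p = 0.081 from limma), was not called. LOC4338459 gave 120, 114 and 128 in M5D and 25.2, 29.6 and 21.4 in W5D, and lay between 16.0 and 24.9 on all arrays before flowering.

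A plastid ribosomal protein (LOC4338005, PSRP4) gave 100, 79.4 and 102 in M5D and 23.4, 17.9 and 23.1 in W5D, with overlapping groups before flowering. The 3 other probe sets of this gene differed by 0.18 to 0.43 at 5 DAP. LOC4330780, with a region conserved in phosphate-induced proteins, gave 268, 314 and 259 in M5D and 89.2, 67.0 and 56.9 in W5D. Its arrays before flowering ranged from 26.8 to 112 in MBF and from 35.2 to 83.6 in WBF. A second probe set of LOC4330780, with a group mean of up to 5340, differed by -0.04 at 5 DAP with overlapping arrays. LOC4352546 was represented by 2 members that behaved alike, with differences of 1.70 and 1.66 at 5 DAP and of 0.26 and 0.06 before flowering. The 2 probe sets of LOC4352000 had differences of 1.54 and 1.47 at 5 DAP, and of -0.25 and -0.46 before flowering.

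The other members called higher before flowering had no described function. Os.37121.1.S2_at gave 35.0, 34.6 and 34.7 in MBF and 24.6, 17.9 and 21.6 in WBF, 0.72 apart on the log2 scale (SE 0.13, limma adjusted p = 0.0223). LOC4349982 gave 1605, 1650 and 1686 in MBF and 1199, 686 and 904 in WBF, 0.86 apart (SE 0.18, limma adjusted p = 0.0396). LOC4328018 gave 684, 850 and 766 in MBF and 550, 463 and 441 in WBF, 0.66 apart (SE 0.13, limma adjusted p = 0.0284). In each the MBF arrays lay above the WBF arrays. Os.27764.1.S1_at and LOC4325371 had log2 changes of 0.65 and 0.63 (adjusted p = 0.0184 and 0.0159 from limma). Without single arrays, Os.37121.1.S2_at and LOC4349982 stayed called only where WBF replicate 1 was dropped. LOC4328018 was lost without MBF replicates 2 or 3 or WBF replicates 2 or 3, Os.27764.1.S1_at without MBF replicates 2 or 3 or WBF replicates 1 or 2, and LOC4325371 without MBF replicate 2 or WBF replicates 1 or 2. By stage class, the 10 members called higher were 2 of the 43 up in fst alone, 3 of the 21 up in both, 3 of the 15 down in both, 1 of the 13 down in WT alone and 1 of the 3 within 2-fold in both. Of the 27 members that differed at least 4-fold at 5 DAP, a cut on the values used by the ranking, 5 were called higher before flowering and 1 lower. Over all probe sets, without regard to class or size, 1.46% were called higher and 2.35% lower.

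The arrays of M5D were not equal for the members. M5D replicate 3 gave the highest M5D signal for 65 of 100 members and replicate 1 the lowest for 50. The choice was repeated on 2 replicate numbers, and the difference was then read in the arrays left out. Of the 100 probe sets chosen without replicate 1, 96 were higher in M5D than in W5D on the arrays of replicate 1, with a median of 1.44 there, against 1.88 on the arrays used. Without replicate 2 the count was 92 with a median of 1.59, against 1.80 on the arrays used. Without replicate 3 it was 100 with a median of 1.77, against 1.64. Over all probe sets, 53.2%, 55.7% and 47.9% were higher in M5D on the arrays of replicates 1, 2 and 3. Of the 100 members, 78, 83 and 76 were chosen again without replicates 1, 2 and 3. The arrays used in these choices also took part in the main one, so part of this overlap is built in. Each reading on left-out arrays compares 1 M5D array with 1 W5D array, and the main ranking used these arrays too. The counts of probe sets higher there are therefore a description and not a test of the excess.

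Markers of other tissues also differed between the groups. Seed storage genes were lower in fst at 5 DAP for 6 of 9, and their summed signal ranged from 1925 to 2140 over the M5D arrays and from 7941 to 21352 over the W5D arrays. In M5D 7 of these 9 genes lay at or below the median signal of 32.2. NF-YB1, an endosperm factor, had 13.9 to 168 in M5D and 392 to 1115 in W5D. Of the 6 genes listed here for ovule and integument, MADS13, MADS21, MADS3 and MADS58 were called higher in fst at 5 DAP by limma. FST itself and MADS30, also on this list, were not called at 5 DAP. Before flowering FST and MADS21 were called higher in fst by limma, by 0.98 (adjusted p = 0.0038) and 0.83 (adjusted p = 0.0287). The other genes of this list were not called before flowering. The sum of the 6 was 12556 to 14162 in M5D and 8608 to 9871 in W5D. MADS58 made up the largest part of it, with 8547 ± 908 in M5D and 5850 ± 336 in W5D (SD, n = 3 each). Of 3 genes of green tissue 1 was called higher at 5 DAP, with a sum of 16676 to 18575 in M5D and 15953 to 16865 in W5D. Before flowering, anther and pollen genes were lower in fst for 3 of 10, with a sum of 3168 to 9785 in MBF and 8886 to 18705 in WBF. At 5 DAP none of these 10 was called by limma (1 higher at an unadjusted p under 0.05), and 7 lay at or below 32.2 in both genotypes. No marker was itself a member, but markers were matched by gene name, which most members lack. The part of these tissues in the excess of the members was not tested.

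No member was on the lists of MADS-box, cytokinin, senescence, photosynthesis and heat shock genes. Lists were matched by gene name, and 10 of the 100 members carried one, so little can be read from this absence. At 5 DAP 7 of 31 MADS-box genes were called higher and 1 lower, with the largest change in MADS22, at -1.99 (SE 0.29, adjusted p = 0.0049 from limma). Of 31 cytokinin genes 6 were higher and 5 lower, of 13 genes of senescence and chlorophyll breakdown 4 were higher and 1 lower, and of 11 photosynthesis genes 1 was higher and none lower (3 higher at an unadjusted p under 0.05). Of 43 genes of heat shock proteins and heat shock factors 3 were higher and 17 lower. The median differences of these lists at 5 DAP were 0.14, 0.09, 0.31, 0.16 and -0.27, beside 0.01 over all probe sets.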

How the data were processed

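RNA of rice panicles was measured on 12 Affymetrix rice arrays, 3 biological replicates per group. The authors deposited intensities on a linear scale, computed by RMA in Affymetrix Expression Console (versions not given in the sources used here), which corrects the background, equalizes the distributions of the arrays and summarizes each probe set. Here the intensities were taken to log2 and called signals. Of 57381 probe sets 123 controls were left out. Array medians lay between 30.8 and 33.6 and correlations within groups between 0.990 and 0.996. The number of arrays limits the precision.

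Members were found by rank as stated in the report. The test before flowering was limma 3.58.1 in R 4.3.3 on the MBF and WBF arrays only, with Benjamini-Hochberg adjustment over 57258 probe sets and a threshold of 0.05. The M5D and W5D arrays were fitted in the same way, read only for genes of lists. Differences are of mean log2 signal. The scripts were checked on simulated data.

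Of the probe sets 22436 had 1 gene in the platform table, 95 several and 34727 none, and 2907 of 17905 genes carried a synonym, so lists miss genes. Each list gene was represented by its brightest probe set, while values over all probe sets include dim ones. Descriptions are names from the study's tables, in part of the closest match in another species. The text names members marked as raised in the study's tables, the 15 highest with a name or description, the largest changes called before flowering, the 3 highest with a name in each stage class, members of lists and those beside the limit of the ranking, clock genes and the largest changes of lists. Others are said to be singled out. Members and lists were chosen with earlier results of these data known. Alternatives were other normalizations and filters, all 12 arrays in the fit, trend and array weights, a block on replicate numbers, a stricter threshold (0.01), other forms of the ranking, and leaving out each array.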

Additional observations from a re-analysis of the deposited data

Results flagged for a closer look

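Of the members, 10 had every fst array above every WT array at 5 DAP, as the ranking demands, and every fst array below every WT array before flowering. Among all probe sets 13.5% had the MBF arrays below the WBF arrays, a larger share than among the 100 members. The count is therefore not particular to the members. The difference between the stages was not tested for these members, since the arrays at 5 DAP chose them. The differences of MBF minus WBF on the log2 scale were -1.02 for LOC9270100, -0.77 for LOC4334726, -0.52 for OsAffx.16798.1.S1_s_at, -0.46 for LOC4352000 (Os.7026.1.S1_x_at), -0.45 for Os.21895.1.S1_at, -0.40 for IAA8, -0.37 for LOC4346800, -0.31 for LOC4347962, -0.25 for OsAffx.30176.1.S1_at and -0.14 for OsAffx.15177.1.S1_at. LOC9270100 had 579, 665 and 865 in M5D and 202, 255 and 205 in W5D, and 466, 230 and 225 in MBF and 485, 736 and 571 in WBF, where MBF replicate 1 came close to the lowest WBF array. Of the 10, LOC4334726 alone was called lower before flowering by limma. Groups of 3 arrays are too small for the check for single outlying samples.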

How the results depend on the processing

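The count of members called higher in fst before flowering was 10, and lay between 9 and 13 with quantile normalization again, centred arrays, the filter on dim probe sets, removal of cross-hybridizing probe sets, trend and robust variances and array weights. It was 6 with all 12 arrays in the fit, 6 with the replicate block, 1 at an adjusted p of 0.01, and 2 to 6 when each array was left out, lowest without MBF replicate 2. The count called lower was 1, and became 3 with array weights, the dim filter or trend and robust variances, 2 with centring or all 12 arrays, 0 with quantile normalization, the replicate block or the threshold of 0.01, and 0 to 2 without single arrays. Over all probe sets 838 (1.46%) were called higher and 1343 (2.35%) lower, and 662 (1.16%) higher and 1922 (3.36%) lower after centring. The dim filter also used the M5D means, and 19 members passed it through M5D alone, a group used to choose them. The counts under this filter are therefore not free of that choice. The share called higher was 3.43% with the dim filter, 2.56% with array weights and 2.26% with trend and robust variances. It was 1.81% with all 12 arrays, 1.66% with quantile normalization, 1.38% without cross-hybridizing probe sets and 0.845% with the block. The share called lower was 5.69% with the dim filter, 3.58% with array weights and 3.8% with trend and robust variances. It was 2.8% with all 12 arrays, 2.14% with quantile normalization, 1.24% with the block and 0.765% to 1.72% without single arrays. The shares of all probe sets at an adjusted p of 0.01 are not given, so the counts at that threshold cannot be set beside them. Centring, all 12 arrays, the block and single arrays turned the direction of no named member that was called. Over all probe sets, arrays of the same replicate number did not deviate together (r from -0.08 to 0.07). The labels give no pairing, and with 3 arrays per group these values cannot settle whether the numbers pair the samples. The probe sets with separate arrays at 5 DAP numbered 8389, 10025 after centring and 6722 without dim ones, and 10576 to 12678 without single arrays, highest without M5D replicate 3. Between 76 and 100 of the members were chosen again under every other form of the ranking. These forms share most or all arrays with the main one, so part of the overlap is built in. The 3 arrays per group and the low signals of many members in W5D limit the size of a fold, which at such signals depends on the background correction.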
